A study of Mus musculus with 30 samples.

Results

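The lean fracture callus on d5 was compared with the lean fracture callus on d3. The callus is the repair tissue that forms around a broken bone. The 6 libraries used were those labelled Day 5 Lean (3 mice) and Day 3 Lean (3 mice), out of 30 libraries of the series, and all genes of the count table were used. The mice were male C57BL/6J, 18 weeks old on arrival and fractured after 2 weeks of acclimation, and the lean mice ate a diet with 10 kcal % fat. All had an open osteotomy of the right tibia that was held by an intramedullary nail. Soft tissue around the callus was removed before freezing, 1 callus gave 1 library, and each mouse was sampled on 1 day only. The lean calli of d7 and d10 (3 mice each) entered the same fit. The calli of diet-induced obese (DIO) mice, fed 60 kcal % fat from 6 weeks of age, were used only to set the same interval beside the lean one.

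Tibial fractures held by a nail heal largely through endochondral ossification. A blood clot and inflammation come first, mesenchymal cells from the periosteum then multiply and turn into chondrocytes, and the cartilage template is later invaded by vessels, resorbed and replaced with bone. The interval between d3 and d5 lies where the inflammatory phase gives way to the formation of the soft callus.

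Reads counted on genes ran from 16115195 to 26365620 on d3 and from 15898640 to 20943185 on d5. Levels below are counts relative to the library's total (CPM) after scaling with the TMM factors of edgeR, and folds are log2 fold changes of d5 against d3 with their standard error (SE). Transcripts of the cells that a callus holds were abundant on both days: Col1a1, type I collagen, had medians of 21358 CPM on d3 and 21479 CPM on d5, Prrx1, a factor of limb mesenchyme, 115 and 150 CPM, and Ptprc, the pan-leukocyte CD45, 139 and 145 CPM. Bone was already represented on d3, when Ibsp, a bone sialoprotein of osteoblasts, had a median of 3429 CPM. Muscle transcripts were also abundant although soft tissue had been removed, with a median of 4841 CPM on d3 and 5386 CPM on d5 for Acta1, skeletal muscle actin. In these bulk libraries, fewer cells of a type and less RNA per cell cannot be told apart.

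The mice of a day were not alike. The 23 tested genes of the erythroid list had mean levels of 5.52, 6.84 and 3.82 log2 CPM in the 3 mice of d3 and of 2.74, 5.52 and 3.93 log2 CPM in the 3 mice of d5. The B cell list was highest in the second mouse of either day, at 4.15 and 3.99 log2 CPM, against 2.11 to 2.42 log2 CPM in the other 4 mice. Cartilage genes were highest, and adult muscle genes lowest, in the third d5 mouse. Blood and marrow transcripts thus differed between mice within a day as much as between the days, and values of single mice are given wherever a result may lean on one of them.

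Between d3 and d5, 74 of 16471 genes tested were called (0.449%) at a Benjamini-Hochberg adjusted p under 0.05 in edgeR's quasi-likelihood F-test. Of these, 73 were higher on d5 (0.443% of genes tested) and 1 was lower (0.00607%). The increases ran from a log2 fold change of 0.69 to 5.96, with a median of 1.56, and the 6 libraries of the 2 days did not overlap for any of the 74 genes. Over all genes tested the median log2 fold change was 0.015. The libraries of d5 lay above all those of d3 for 13% of genes and below all of them for 10.1%. At an unadjusted p under 0.05 there were 2430 genes (14.8%), with 9.07% of genes higher and 5.68% lower. The number of calls depended on single mice: it was 9 without the first d3 mouse, 9 without the second, 129 without the third, 11 without the first d5 mouse, 28 without the second and 49 without the third. With DESeq2, which the authors used for single comparisons, 605 genes were called, of which 459 were higher and 146 lower and which included all 74. Calls and adjusted p-values below are those of edgeR unless DESeq2 is named. A gene said not to be called can therefore be among the DESeq2 calls.

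Only 6 of the 74 genes were called with each of the 6 mice left out in turn. Among them were Igf2, a fetal growth factor, Dcstamp and Ocstamp, which drive the fusion of osteoclast precursors, and Col8a2, a short-chain collagen. The other genes were Mst1r, the receptor tyrosine kinase RON, and Mdk, the heparin-binding growth factor midkine, both chosen after their values were seen. Mst1r was at 6.95, 7.92 and 8.55 CPM on d3 and at 29.997, 26.7 and 32.1 CPM on d5 (log2 fold change 1.92 ± 0.15 SE, adjusted p = 0.000528), the smallest p of the comparison. Mdk was at 19.6, 18.8 and 23.1 CPM on d3 and at 58.5, 72.6 and 82.9 CPM on d5 (1.80 ± 0.18 SE, adjusted p = 0.00182). In both genes the gap between the days was wider than the range of the mice within a day. Of the other 68 genes, 10 lost the call whichever mouse was left out and 32 kept it in 1 of the 6 fits.

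**Figure D1:**
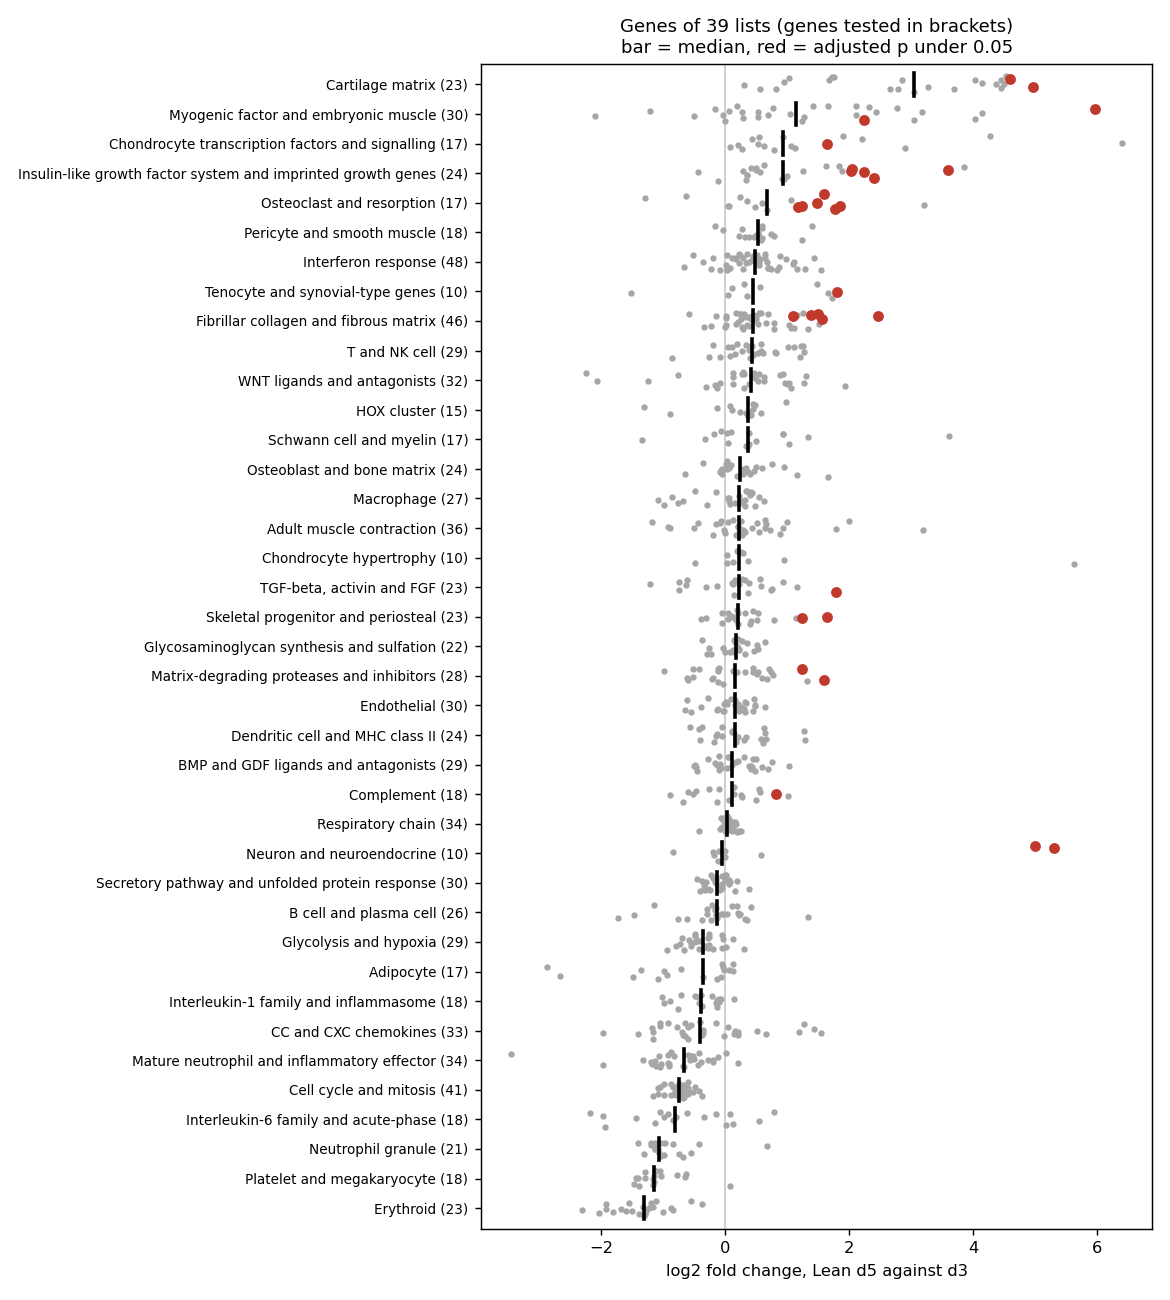
Log2 fold change of d5 against d3 (x axis) for the tested genes of 39 gene lists (y axis, number of tested genes in brackets), with 1 point per gene, the list's median as a black bar and genes past an adjusted p of 0.05 in red. Called genes are most numerous in the lists of osteoclasts (6), fibrous matrix (5) and imprinted growth genes (5). Other lists hold 2 or fewer, among them cartilage matrix (2) and embryonic muscle (2). The 41 cell cycle genes lie below 0 without a red point.

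The cartilage genes Col9a2 and Cnmd rose from d3 to d5. All 23 tested genes of the cartilage matrix list had a log2 fold change above 0 (52.1% of all genes did), with a median of 3.05 (2.00 without the third d5 mouse), and 16 did not overlap between days (13% of all genes did so in this direction). Col9a2 and Cnmd passed the test and 21 genes did not. Col9a2, a chain of the type IX collagen that coats type II fibrils, lies at chr4:121039385-121055322 (GRCm38, plus strand). It was at 11.3, 10.9 and 9.24 CPM on d3 and at 96.8, 154 and 512 CPM on d5 (log2 fold change 4.60 ± 0.85 SE, adjusted p = 0.041). Cnmd, which encodes the anti-angiogenic cartilage protein chondromodulin, lies at chr14:79637690-79662170 on the minus strand. It was at 2.92, 0.622 and 0.643 CPM on d3 and at 15.5, 20.6 and 86.8 CPM on d5 (4.96 ± 0.95 SE, adjusted p = 0.049). The d3 mice lay close together for Col9a2 and the first of them was the highest for Cnmd, and the third d5 mouse stood above the other d5 mice for both genes. Each gene lost its call whichever of the 6 mice was left out.

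Other cartilage genes had folds of the same size and adjusted p-values just above the threshold. Col2a1, the main collagen of cartilage, was at 142, 145 and 98.5 CPM on d3 and at 1045, 1668 and 6000 CPM on d5 (log2 fold change 4.50 ± 0.92 SE, adjusted p = 0.060). For Col9a3 the adjusted p was 0.053 and for Col9a1 0.057. Acan, the large proteoglycan aggrecan, was at 247, 175 and 177 CPM on d3 and at 278, 498 and 1138 CPM on d5 (1.68 ± 0.73 SE, adjusted p = 0.31). It was well expressed on d3, and its fold was smaller than those of Col2a1 and the type IX collagen genes. Col10a1, the collagen of hypertrophic chondrocytes, was at 21.3, 1.59 and 1.09 CPM on d3 and at 134, 74.4 and 949 CPM on d5 (adjusted p = 0.083), but the other 9 genes of the hypertrophy list had smaller folds and its median was 0.22, or -0.20 without the third d5 mouse, 0.13 without the second d3 mouse and 0.39 without the second d5 mouse.

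Gli1, a transcription factor and transcriptional target of hedgehog signalling, was the called gene among 17 tested chondrocyte regulators, of which all 17 had a log2 fold change above 0 (median 0.94, or 0.56 without the third d5 mouse). It was at 20.9, 21.8 and 19.8 CPM on d3 and at 53.5, 45.0 and 95.2 CPM on d5 (1.63 ± 0.28 SE, adjusted p = 0.026). Other genes of that pathway, chosen after their values were seen, did not overlap between days either and did not pass the test. Ihh, the hedgehog ligand of the growth plate, was at 5.03, 4.63 and 3.95 CPM on d3 and at 12.4, 18.4 and 70.5 CPM on d5 (adjusted p = 0.13). The receptor Ptch1 had an adjusted p of 0.21 and the decoy receptor Hhip 0.12. Sox9, the master regulator of chondrocytes, was at 21.3, 17.1 and 20.1 CPM on d3 and at 23.1, 39.4 and 65.0 CPM on d5 (adjusted p = 0.40), and its partner Sox5 had a log2 fold change of 1.89 ± 0.49 SE (adjusted p = 0.11). Foxa3 had the largest fold of the chondrocyte regulators, 6.39 ± 1.28 SE, without overlap between days (adjusted p = 0.055). None of the 22 genes that build and sulfate glycosaminoglycan chains was called (median 0.17, or -0.015 without the third d5 mouse and 0.09 without the second d3 mouse).

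The promoters of called genes from the cartilage, osteoclast and muscle lists are shown so that the windows before their starts can be compared. They are from RefSeq on GRCm38.p6 and hold 250 bases before and 50 after the annotated start, read 5′ to 3′ on the strand of the gene. Capitals mark the letters ACAAT (the core that SOX factors bind), CAGCTG (an E-box of the muscle type), GGAAA (the core that NFAT factors bind) and TATAAA (the TATA box), each searched on both strands. No marked stretches overlap. The windows are chr4:121039316-121039615 (plus) for Col9a2, chr14:79662134-79662433 (minus) for Cnmd, chr3:95498960-95499259 (plus) for Ctsk and chr11:67276874-67277173 (plus) for Myh8.
Col9a2: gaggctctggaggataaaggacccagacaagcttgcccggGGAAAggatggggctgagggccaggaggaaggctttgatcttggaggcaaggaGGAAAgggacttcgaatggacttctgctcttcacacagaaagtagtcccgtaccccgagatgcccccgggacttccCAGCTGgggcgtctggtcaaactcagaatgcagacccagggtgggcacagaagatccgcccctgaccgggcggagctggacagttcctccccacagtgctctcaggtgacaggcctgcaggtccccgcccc
Cnmd: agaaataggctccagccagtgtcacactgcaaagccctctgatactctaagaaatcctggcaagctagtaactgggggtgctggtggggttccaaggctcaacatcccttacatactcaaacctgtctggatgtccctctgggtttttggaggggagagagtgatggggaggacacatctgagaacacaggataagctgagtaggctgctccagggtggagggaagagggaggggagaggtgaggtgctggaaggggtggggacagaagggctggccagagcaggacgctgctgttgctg
Ctsk: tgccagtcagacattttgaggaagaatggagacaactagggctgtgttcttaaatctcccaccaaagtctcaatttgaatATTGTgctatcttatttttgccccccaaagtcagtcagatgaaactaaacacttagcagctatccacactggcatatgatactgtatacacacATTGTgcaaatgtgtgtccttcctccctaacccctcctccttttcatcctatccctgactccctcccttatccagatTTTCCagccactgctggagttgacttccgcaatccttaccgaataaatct
Myh8: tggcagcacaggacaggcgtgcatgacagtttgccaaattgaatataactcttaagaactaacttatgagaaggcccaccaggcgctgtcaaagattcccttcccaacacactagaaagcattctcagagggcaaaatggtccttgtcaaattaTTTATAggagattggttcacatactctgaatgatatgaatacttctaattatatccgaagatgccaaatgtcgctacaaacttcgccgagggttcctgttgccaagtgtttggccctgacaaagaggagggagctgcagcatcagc
The Col9a2 window holds 2 matches to GGAAA and 1 to CAGCTG, the Ctsk window 2 to ACAAT and 1 to GGAAA, and the Myh8 window 1 to TATAAA. In the Cnmd window none of these letters occur. Of all 32851 promoters of this length, 31% hold ACAAT, 16.3% CAGCTG, 61.3% GGAAA and 13.6% TATAAA. Of the 65 promoters of the 48 called genes that were higher on d5 and had an entry, 23.1% hold ACAAT, 20% CAGCTG, 64.6% GGAAA and 7.69% TATAAA. A match describes the letters only, and binding was not measured.

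Fetal growth genes were among the clearest increases. The list of the insulin-like growth factor (IGF) system and imprinted growth genes had 5 called genes of 24 tested, all higher on d5, with a list median of 0.93 against 0.015 over all genes. The called genes included, 17 of the 24 lay higher in every d5 mouse than in any d3 mouse. Among all genes tested, 0.443% were called higher and 13% lay higher in every d5 mouse. Imprinted genes are expressed from only the maternal or only the paternal allele, and many of them act on growth before birth. Igf2, the fetal ligand of the IGF receptor, lies at chr7:142650766-142666816 on the minus strand. It was at 48.7, 22.6 and 28.1 CPM on d3 and at 613, 368 and 214 CPM on d5 (log2 fold change 3.59 ± 0.41 SE, adjusted p = 0.00435). The lowest d5 mouse was several times above the highest d3 mouse. In the annotation, 62.8% of the exonic length of Igf2 is shared with Gm49394 on the same strand, so that reads of this stretch could have been assigned to neither.

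H19, the imprinted non-coding RNA next to Igf2 (chr7:142575529-142578143), was at 455, 277 and 347 CPM on d3 and at 2743, 1864 and 1055 CPM on d5 (2.39 ± 0.33 SE, adjusted p = 0.010). Mest, an imprinted hydrolase of mesodermal tissue, was at 120, 121 and 140 CPM on d3 and at 645, 457 and 474 CPM on d5 (2.04 ± 0.26 SE, adjusted p = 0.00733). Cdkn1c, which encodes the cyclin-dependent kinase inhibitor p57, had a log2 fold change of 2.23 ± 0.38 SE (adjusted p = 0.026), and Igfbp2, an IGF-binding protein, of 2.03 ± 0.32 SE (adjusted p = 0.026). Exons of other genes on the opposite strand cover 23.1% of the exonic length of Mest and 30.7% of that of Cdkn1c. Igf1, the postnatal ligand, was at 45.9, 54.01 and 87.0 CPM on d3 and at 181, 126 and 138 CPM on d5 (adjusted p = 0.072), and the imprinted zinc finger gene Zim1, chosen after its values were seen, at 0.643, 0.657 and 0.247 CPM and at 10.2, 3.79 and 8.83 CPM (adjusted p = 0.068). The highest levels of Igf2 and H19 were in the first d5 mouse and the lowest in the third, the reverse of the cartilage genes. Adult muscle genes had the same order on d5, with summed levels of 37409, 25322 and 8952 CPM. On d3 Igf2 and H19 were highest in the first mouse and adult muscle genes in the third. The list of myogenic and embryonic muscle genes was highest in the first mouse on both days. Its summed levels were 3676, 1629 and 1898 CPM on d3 and 6157, 3759 and 1107 CPM on d5. The part of muscle content in the increases of Igf2 and H19 was not tested.

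**Figure D2:**
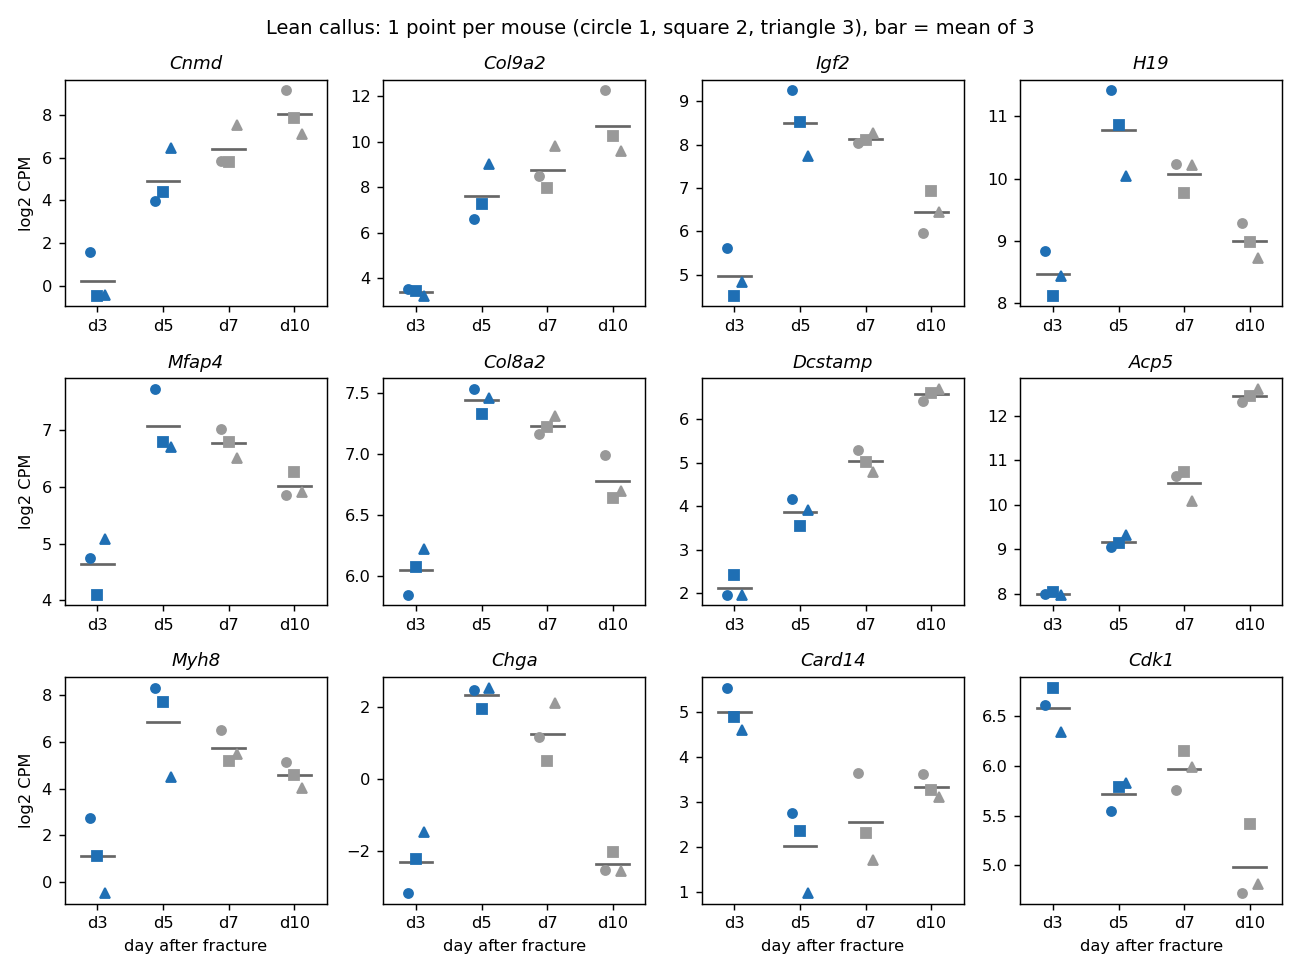
Log2 CPM (y axis, prior count 2, each panel with its own range) of 12 genes in the 12 lean mice by day (x axis), with 1 point per mouse and the mean of the 3 mice as a bar; the days compared are in blue. Cnmd, Col9a2, Dcstamp and Acp5 were higher still on d7 and d10, while Igf2, H19, Mfap4, Col8a2, Myh8 and Chga had their highest mean on d5.

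Among genes of fibrous matrix, 5 of 46 were called and all 5 rose. The list had a median of 0.44, or 0.22 without the third d5 mouse, and 20 of its genes lay higher in every d5 mouse. The shares among all genes tested were 0.443% called higher and 13% higher in every d5 mouse. Col8a2, a chain of the network-forming type VIII collagen, was at 57.6, 67.5 and 74.6 CPM on d3 and at 185, 160 and 176 CPM on d5 (log2 fold change 1.38 ± 0.14 SE, adjusted p = 0.00182). Mfap4, a protein of elastic microfibrils, was at 26.8, 17.0 and 33.5 CPM on d3 and at 212, 111 and 103 CPM on d5 (2.46 ± 0.31 SE, adjusted p = 0.00733). The microfibril genes Mfap2 (1.49 ± 0.25 SE) and Fbn2, the fetal fibrillin (1.56 ± 0.25 SE), and Thbs2, a thrombospondin of connective tissue (1.09 ± 0.18 SE), each had an adjusted p of 0.026. The abundant collagens behaved otherwise: Col1a1 ranged from 16725 to 25384 CPM on d3 and from 20332 to 42144 CPM on d5, and Col3a1 from 4128 to 6389 CPM and from 5444 to 8001 CPM, with overlap. Fn1, fibronectin, was at 1622, 1111 and 1304 CPM on d3 and at 2026, 2624 and 3786 CPM on d5 (adjusted p = 0.26).

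Of 10 genes of tendon and joint lining, 9 had a log2 fold change above 0 and 1 below, with a median of 0.45. Tnmd, the tendon-cell protein tenomodulin and a relative of Cnmd, was at 4.15, 7.54 and 8.75 CPM on d3 and at 33.7, 18.1 and 20.1 CPM on d5 (1.81 ± 0.30 SE, adjusted p = 0.026). It was the called gene of the list. Prg4, the joint lubricant lubricin and the gene below 0, was at 319, 173 and 265 CPM on d3 and at 68.4, 88.9 and 106 CPM on d5 (adjusted p = 0.082). Among 28 proteases of matrix and their inhibitors, Ctsk and Adamts17 were called, and the median was 0.16, with values from 0.021 to 0.37 when 1 mouse was left out (lowest without the third d5 mouse, highest without the third d3 mouse). Adamts16, a metalloprotease outside that list, rose by a log2 fold change of 2.67 ± 0.46 SE (adjusted p = 0.028). Pamr1, a secreted protease-like protein of muscle, rose by 1.94 ± 0.26 SE (adjusted p = 0.0091). Mmp9, the gelatinase of osteoclasts and neutrophils, was at 400, 662 and 452 CPM on d3 and at 620, 850 and 954 CPM on d5, with overlap (adjusted p = 0.17).

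Of the osteoclast genes, 6 rose, among them genes of fusion and resorption. Osteoclasts are multinucleate cells that arise by fusion of myeloid precursors and resorb mineral and cartilage. Of 17 tested genes of the list, 6 were called, all higher on d5 (0.443% of all genes were called higher). In every d5 mouse 11 of the 17 lay higher (13% of all genes did so), and the median was 0.68. For fusion, Dcstamp (chr15:39745930-39760938) was at 3.80, 5.26 and 3.81 CPM on d3 and at 17.8, 11.6 and 14.9 CPM on d5 (log2 fold change 1.77 ± 0.20 SE, adjusted p = 0.00435). Ocstamp, its partner, was at 8.77, 7.81 and 8.85 CPM on d3 and at 25.6, 20.9 and 24.3 CPM on d5 (1.48 ± 0.15 SE, adjusted p = 0.00182). Both fusion genes were called with each mouse left out in turn. For resorption, Ctsk, the collagen-degrading cathepsin K (chr3:95499256-95509362), was at 287, 295 and 341 CPM on d3 and at 705, 686 and 776 CPM on d5 (1.23 ± 0.21 SE, adjusted p = 0.026). Acp5, tartrate-resistant acid phosphatase, was at 255, 262 and 251 CPM on d3 and at 532, 563 and 635 CPM on d5 (1.17 ± 0.19 SE, adjusted p = 0.026). Ctsk kept its call in 1 of the 6 fits that left out a mouse, and Acp5 in 0.

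Of the receptors, Oscar, a co-stimulatory receptor of osteoclasts, was at 3.27, 5.01 and 4.40 CPM on d3 and at 14.1, 11.03 and 13.4 CPM on d5 (1.59 ± 0.25 SE, adjusted p = 0.026). Siglec15, a sialic acid receptor of late osteoclast differentiation, had a log2 fold change of 1.85 ± 0.31 SE (adjusted p = 0.026) at about 1 CPM. Oscar kept its call in 2 of the 6 fits that left out a mouse, and Siglec15 in 0. Calcr, the calcitonin receptor, which was chosen after its values were seen, was at 0.0584, 0.0346 and 0.0989 CPM on d3 and at 0.902, 0.642 and 0.332 CPM on d5 (adjusted p = 0.061), from 4 reads on d3 and 33 on d5. Car2, carbonic anhydrase 2 of osteoclasts and red cells, also chosen after its values were seen, was at 92.5, 297 and 30.8 CPM on d3 and at 20.2, 111 and 40.7 CPM on d5, in the same order of mice within each day as the erythroid list (adjusted p = 0.52). The general macrophage gene Csf1r, the receptor from which osteoclast precursors receive their survival signal, was at 333, 300 and 338 CPM on d3 and at 477, 432 and 367 CPM on d5 (adjusted p = 0.37), and 0 of 27 macrophage genes were called.

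No gene of the osteoblast and bone matrix list was called among 24 tested, and its median was 0.23, with values from -0.21 (without the third d5 mouse) to 0.43 (without the first d5 mouse) when 1 mouse was left out. Bglap, osteocalcin, was at 4.68, 24.7 and 55.4 CPM on d3 and at 63.7, 112 and 89.8 CPM on d5 (adjusted p = 0.27). Bglap shares 99.8% of its longest transcript with near-identical copies, so that its own count is uncertain. Sp7, the osteoblast transcription factor osterix, ranged from 223 to 302 CPM on d3 and from 182 to 383 CPM on d5.

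A myosin of newly formed muscle fibres rose, to levels that differed widely between the d5 mice. Of 30 tested genes of the myogenic and embryonic muscle list, Myh8 and Cdkn1c were called, both higher on d5, and the median was 1.14, or 0.46 without the first d5 mouse and 1.85 without the first d3 mouse. Myh8, the perinatal myosin heavy chain (chr11:67277124-67308634), had the largest increase of all called genes. It was at 6.60, 2.01 and 0.593 CPM on d3 and at 324, 208 and 22.5 CPM on d5 (log2 fold change 5.96 ± 1.00 SE, adjusted p = 0.026). The third d5 mouse was far below the other d5 mice and still above all d3 mice. Myh3, the embryonic myosin, was at 45.8, 9.75 and 5.93 CPM on d3 and at 616, 333 and 50.3 CPM on d5 (4.03 ± 0.89 SE, adjusted p = 0.070). Myog, myogenin, which switches myoblasts to differentiation, was at 43.8, 14.8 and 9.59 CPM on d3 and at 68.9, 66.6 and 24.3 CPM on d5, with overlap (adjusted p = 0.28).

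Adult muscle genes followed the same order of mice on d5. None of 36 was called, the median was 0.23 (-0.23 without the first d5 mouse, 0.61 without the third, 0.06 without the second d3 mouse and 0.49 without the third), and their summed level was 20930, 14328 and 24466 CPM on d3 and 37409, 25322 and 8952 CPM on d5. The highest folds of that list were in troponins of slow fibres, of which Tnni1 was at 33.3, 8.47 and 15.7 CPM on d3 and at 310, 182 and 26.2 CPM on d5 (adjusted p = 0.072). Ankrd1, a stretch- and injury-induced gene of muscle that was chosen after its values were seen, was at 326, 117 and 107 CPM on d3 and at 82.2, 34.8 and 10.8 CPM on d5 (adjusted p = 0.23). The part of muscle content in the difference of Myh8 was not tested.

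**Figure D3:**
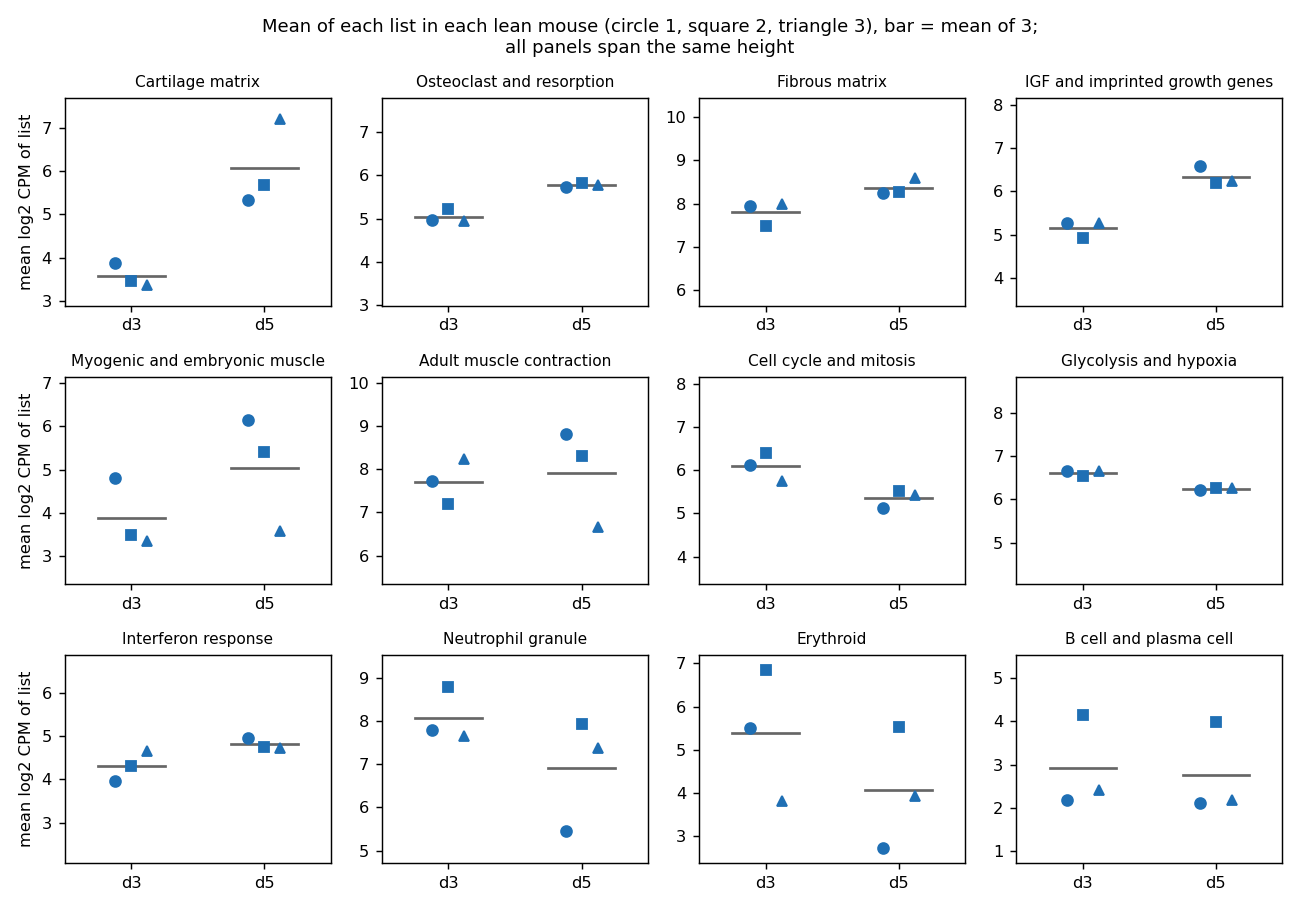
Mean log2 CPM (y axis, same height in all panels) of 12 gene lists in the 3 lean mice of d3 and the 3 of d5 (x axis), with 1 point per mouse and the mean of the 3 mice as a bar. Cartilage, osteoclast, fibrous matrix, IGF, interferon, cell cycle and glycolysis lists do not overlap between days. Cartilage is highest in the third d5 mouse and adult muscle lowest in it, and erythroid and B cell lists vary more between mice than between days.

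The remaining large increases were in genes of several kinds. Chga, the chromogranin A of secretory granules, was at 0, 0.104 and 0.247 CPM on d3 and at 5.47, 3.73 and 5.70 CPM on d5, from 8 reads on d3 and 275 on d5. Its log2 fold change was 5.29 ± 0.68 SE (adjusted p = 0.0077). The uncharacterized gene 6330403K07Rik was at 0.0584, 0 and 0.148 CPM on d3 and at 2.64, 2.68 and 1.28 CPM on d5 (4.99 ± 0.76 SE, adjusted p = 0.021). The fitted folds of both genes rest on a few d3 reads and depend on the prior count. Of the other 8 tested genes of the neuron and neuroendocrine list none was called, and its median was -0.06, between -0.22 (without the second d3 mouse) and 0.09 (without the third d5 mouse) when 1 mouse was left out.

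Penk, the precursor of enkephalin peptides, was at 6.25, 7.81 and 14.6 CPM on d3 and at 56.7, 31.7 and 57.2 CPM on d5 (2.35 ± 0.31 SE, adjusted p = 0.0091). Hsd11b2, which inactivates glucocorticoids, was at 1.81, 1.45 and 2.82 CPM on d3 and at 10.6, 7.12 and 11.9 CPM on d5 (2.28 ± 0.31 SE, adjusted p = 0.0091). Fgfrl1, a decoy-type receptor for fibroblast growth factors, was the called gene of 23 in the list of TGF-beta, activin and FGF genes (1.79 ± 0.31 SE, adjusted p = 0.028). Lowly expressed genes among the increases were the transcription factors Klf14 (4.01 ± 0.62 SE, adjusted p = 0.021) and Rbpjl (3.45 ± 0.66 SE, adjusted p = 0.049), the heparan sulfate sulfotransferase Hs3st6 (3.12 ± 0.47 SE, adjusted p = 0.018), the pantetheinase Vnn1 (2.31 ± 0.40 SE, adjusted p = 0.029) and BC067074 (2.05 ± 0.36 SE, adjusted p = 0.034). Exons of Matn4, a gene of the cartilage matrix list, cover 2.6% of the exonic length of Rbpjl on the opposite strand. The part of Matn4 reads in the Rbpjl count was not tested. No WNT gene of 32 and no BMP or GDF gene of 29 was called.

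Card14, a scaffold protein of NF-kappaB signalling in epithelia, was the gene that fell. It was at 46.3, 29.4 and 24.1 CPM on d3 and at 6.61, 5.02 and 1.85 CPM on d5 (log2 fold change -2.89 ± 0.53 SE, adjusted p = 0.040). The groups did not overlap, and the level was 6.83 CPM on d7 and 10.1 CPM on d10 (means of 3 mice). Exons of Sgsh on the opposite strand cover 20.7% of the exonic length of Card14. It was called in 1 of the 6 fits that left out a mouse, the one without the third d3 mouse.

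Cell cycle genes were lower on d5 in nearly every member and none passed the edgeR test. All 41 had a log2 fold change below 0, between -1.17 and -0.38 with a median of -0.74, 39 lay lower in every d5 mouse than in any d3 mouse (10.1% of all genes did so), and 38 had an unadjusted p under 0.05. Mki67, which encodes the proliferation antigen Ki-67, was at 359, 625 and 245 CPM on d3 and at 163, 233 and 198 CPM on d5 (adjusted p = 0.20). Cdk1, the kinase that drives entry into mitosis, was at 97.7, 111 and 81.2 CPM on d3 and at 46.7, 55.1 and 56.7 CPM on d5 (-0.87 ± 0.19 SE, adjusted p = 0.072). Tpx2, a spindle assembly factor, had the smallest adjusted p of the list, 0.065. These genes are regulated together, so that the members are no independent counts.

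The mean of the cell cycle list had the same order of mice as the erythroid list within each day, and the part of marrow cells in the difference was not tested. It was at 6.11, 6.39 and 5.75 log2 CPM on d3 and at 5.12, 5.51 and 5.43 log2 CPM on d5. Without any 1 mouse the median lay between -0.88 and -0.58.

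Genes of glycolysis and hypoxia were lower by a smaller amount, with a median of -0.36 over 29 genes. Of these, 0 were called and 8 lay lower in every d5 mouse (10.1% of all genes did so). Hk2, the inducible hexokinase, was at 116, 93.3 and 94.1 CPM on d3 and at 59.4, 65.2 and 50.05 CPM on d5 (adjusted p = 0.065). The median of 34 genes of the respiratory chain was 0.03, between -0.07 (without the first d5 mouse) and 0.12 (without the third) when 1 mouse was left out.

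No gene of the immune lists fell by the test, and C1ra was the called gene that rose. Of 34 tested genes of mature neutrophils and inflammatory effectors, 32 had a log2 fold change below 0 and the median was -0.67, or -0.40 without the second d3 mouse and -1.05 without the second d5 mouse. Arg1, the arginase of wound macrophages, was at 277, 88.3 and 161 CPM on d3 and at 12.7, 10.3 and 25.02 CPM on d5 (-3.45 ± 0.67 SE, adjusted p = 0.051), and did not overlap. Saa3, an acute-phase serum amyloid, was at 8.77, 11.1 and 14.4 CPM on d3 and at 2.64, 3.44 and 2.85 CPM on d5 (adjusted p = 0.090). Il11, a cytokine of the interleukin-6 family, was at 19.2, 9.37 and 10.7 CPM on d3 and at 0.902, 2.51 and 6.46 CPM on d5 (adjusted p = 0.17). The scavenger receptor Msr1 was at 78.5, 51.8 and 68.0 CPM on d3 and at 45.3, 30.6 and 33.8 CPM on d5 (adjusted p = 0.097). Each of these lay lower in every d5 mouse.

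Medians of the other immune lists lay on both sides of 0. They were -1.07 for 21 neutrophil granule genes, with single mice between 5.45 and 8.78 log2 CPM, -1.15 for 18 platelet genes, -0.82 for 18 genes of the interleukin-6 family and acute phase, -0.40 for 33 chemokine genes, 0.23 for macrophages and 0.43 for 29 T and NK cell genes. Lower in every d5 mouse were 7 platelet, 5 interleukin-6 and acute-phase, 10 chemokine and 8 of the 34 mature neutrophil genes (10.1% of all genes were). In these lists 4 chemokine genes and 1 interleukin-6 and acute-phase gene were higher in every d5 mouse. Pf4, platelet factor 4, was at 184, 215 and 243 CPM on d3 and at 112, 107 and 90.8 CPM on d5 (adjusted p = 0.15). The erythroid median was -1.31, and it was -0.31 without the second d3 mouse and -2.51 without the second d5 mouse. Leaving out the second d3 mouse also moved the medians of platelet genes to -0.69, of neutrophil granule genes to -0.64, of macrophage genes to 0.11 and of T and NK cell genes to 0.89. Without the first d5 mouse they were -0.76 for platelet, -0.60 for neutrophil granule and 0.05 for macrophage genes. Without the second d5 mouse the neutrophil granule median was -1.64 and the macrophage median 0.12, and without the first d3 mouse the T and NK cell median was 0.16. Interferon response genes lay the other way, with a median of 0.47 over 48 genes (0.29 without the first d3 mouse). Of these, 19 were higher in every d5 mouse (13% of all genes were) and 0 were called. Bst2, an antiviral tetherin, was at 52.2, 53.7 and 64.9 CPM on d3 and at 160, 103 and 101 CPM on d5 (adjusted p = 0.072). C1ra, the complement protease that starts the classical pathway, rose by a log2 fold change of 0.81 ± 0.14 SE (adjusted p = 0.027), and 81.5% of its longest transcript is near-identical to other genes.

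Stromal and vascular lists held few called genes. Among 23 genes of skeletal progenitors and the periosteum, Ctsk and Gli1 were called and the median was 0.20, or 0.08 without the second d3 mouse and 0.39 without the third. The median of 18 pericyte and smooth muscle genes was 0.53, with 8 genes higher in every d5 mouse (13% of all genes were) and 0 called. Acta2, smooth muscle actin, was at 286, 162 and 237 CPM on d3 and at 448, 383 and 351 CPM on d5 (adjusted p = 0.11). For 30 endothelial genes the median was 0.16, for 17 adipocyte genes -0.36, for 17 Schwann cell genes 0.36, for 15 HOX genes 0.37 and for 30 genes of the secretory pathway -0.13, each with 0 called. With 1 mouse left out these medians ran from 0.055 to 0.26 for endothelial genes (lowest without the third d5 mouse, highest without the third d3 mouse), from -0.75 to 0.001 for adipocyte genes (lowest without the second d5 mouse, highest without the third d3 mouse), from 0.16 to 0.49 for Schwann cell genes and from 0.19 to 0.58 for HOX genes (both lowest without the second d3 mouse), and from -0.30 to -0.049 for the secretory pathway (lowest without the third d5 mouse, highest without the first). Ncmap, a myelin protein gene of the Schwann cell list, was at 0.409, 0.484 and 0.989 CPM on d3 and at 3.01, 4.26 and 15.6 CPM on d5 (adjusted p = 0.074), in the order of mice of the cartilage list on d5.

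On d7 and d10 the called genes parted. The mean level of 31 of the 73 genes that rose was above the d5 mean on d7, and that of 37 on d10, while 0 and 3 were below their d3 mean. The osteoclast and cartilage genes were among those that were higher later: Acp5 had means of 256, 577, 1464 and 5618 CPM on d3, d5, d7 and d10, Dcstamp of 4.29, 14.8, 32.9 and 95.7 CPM, and Col9a2 of 10.5, 254, 507 and 2305 CPM. Igf2 went the other way after d5, with means of 33.2, 399, 282 and 90.1 CPM, as did Mest (127, 525, 422 and 180 CPM), Fbn2 and Mfap4. Chga went from 0.117 CPM on d3 to 4.97 CPM on d5, and was at 2.54 CPM on d7 and at 0.0862 CPM on d10 (means), so that it was detected mainly on the middle days. Since the genes were chosen for a high d5 and a low d3, their later levels are a description.

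The DIO callus was sampled on the same days and shares no library with the lean comparison. There, 285 of 16995 genes were called (1.68%), 237 higher (1.39%) and 48 lower (0.282%). All 74 genes called in the lean callus had the same direction in the DIO callus, where 65.1% of all 16343 genes tested in both did, and 24 of the 74 were called. These 24 made up 32.4% of the lean calls and 8.42% of the DIO calls. Among them were Col9a2, Cnmd, Myh8, Igf2, Mest, Cdkn1c, Fbn2, Ctsk, Acp5, Dcstamp and Oscar. The cartilage matrix list had 15 called genes of 23 in the DIO callus, with a median of 4.29. The DIO medians of osteoclast (1.21), IGF and imprinted growth (0.89) and cell cycle genes (-0.42) also had the lean direction. Other lists lay on opposite sides of 0, among them interferon response (0.47 lean, -0.27 DIO), macrophage (0.23, -0.37) and adult muscle genes (0.23, -0.56). Differences of list medians between the diets were not tested. The median log2 fold change of the 74 genes was 1.55 in the lean callus, which chose them, and 1.13 in the DIO callus.

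The test of whether the change from d3 to d5 differed between the diets gave 0 calls among 17057 genes (0%), with 736 genes (4.31%) at an unadjusted p under 0.05 and 1 call with DESeq2. For each of the 74 genes the adjusted p of that test was 0.99 or more, so that none of the changes was shown to be particular to lean mice. Of the 74 genes, 20 had an unadjusted p under 0.05 in that test, and 63 had a smaller fold in the DIO callus. The 74 were chosen by their lean folds, so these counts cannot be set against the share of all genes. Of the 74 genes, Chga had the widest gap between the diets. It was at 2.17, 0 and 0.486 CPM in the DIO mice of d3 and at 2.02, 1.26 and 1.08 CPM in those of d5, a log2 fold change of 0.76 against 5.29 in the lean callus. Cnmd lay the other way, with 7.28 in the DIO callus against 4.96 in the lean callus. The smallest adjusted p was 0.15, for Gpr132, a proton-sensing receptor of myeloid cells, which was at 34.9, 24.05 and 24.97 CPM on d3 and at 10.8, 7.92 and 9.91 CPM on d5 in the DIO callus and at 18.9, 26.4 and 19.6 CPM and at 33.3, 27.1 and 21.6 CPM in the lean callus.

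**Figure D4:**
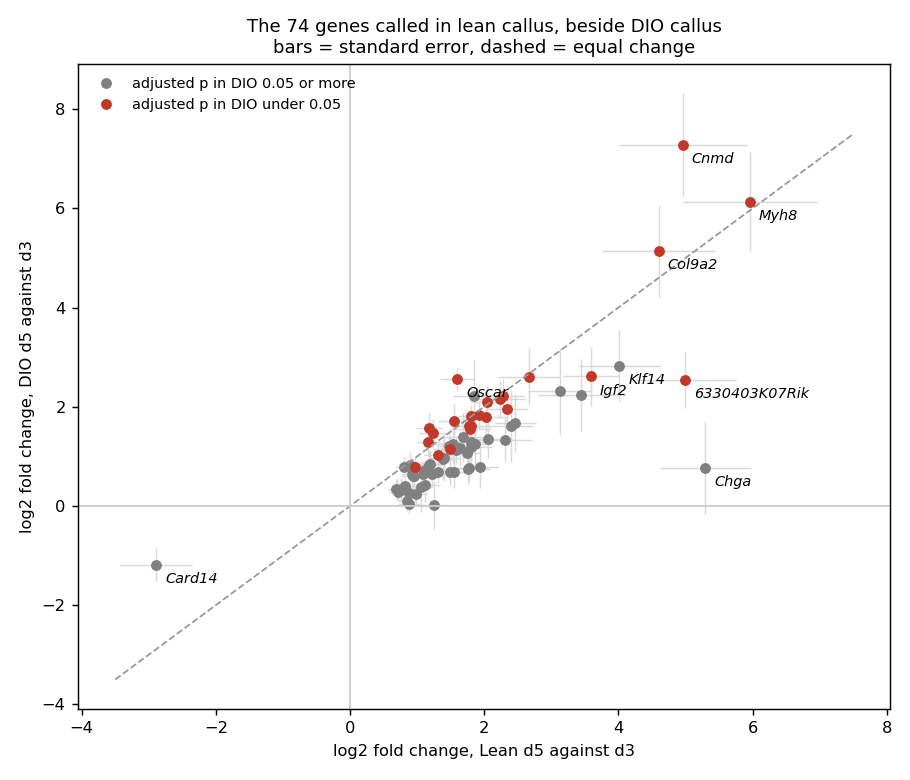
Log2 fold change of d5 against d3 in the lean callus (x axis) and in the DIO callus (y axis) for the 74 genes called in the lean callus, with standard errors as bars, genes past an adjusted p of 0.05 in the DIO callus in red and equal change as the dashed line. All 74 points lie on the same side of 0 on both axes, and Chga lies farthest below the dashed line.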

How the data were processed

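Callus RNA was sequenced from stranded poly(A) libraries. The authors trimmed reads with BBDuk, aligned them to GRCm38 with HISAT2 2.1.0 and counted them per gene with HTSeq, and they deposited these raw counts without normalization; the HTSeq version, strand setting and annotation are not given in the sources used here. The table holds 43629 genes, of which 42548 were found in GENCODE M21.

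Counts were scaled with TMM factors, filtered with filterByExpr and tested in edgeR 4.0.16 (R 4.3.3) by quasi-likelihood F-tests, two-sided, at a Benjamini-Hochberg adjusted p under 0.05. Lean days were compared in 1 fit of 12 libraries, DIO days in 1 fit of 18, and the change between diets in 1 fit of 24 libraries of d3 to d10. Each library was 1 mouse, with 3 mice a day. The p-values rest on the spread between mice of the same day, estimated over all days of a fit. For the lean comparison this includes the mice of d7 and d10. The fits were tested on simulated data. There the lean edgeR fit called 99 of 100 genes changed by a log2 fold of 3 in size and 66 of 100 changed by 1.5. The edgeR test between diets called 56 of 100 genes changed by 1.5. In the lean setting edgeR made 10 false calls among 175 and DESeq2 39 among 216. Chi-square per degree of freedom between libraries of a group was 26.3 or more, so that none was a duplicate.

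The comparison and the 39 gene lists (1025 of 1030 names matched) were chosen with earlier results of these data known. Named genes were the 20 largest increases and 10 largest decreases past the threshold at 1 CPM or more without overlap, called list members, the first 3 genes of each list, the 3 with the smallest p of each list and the 10 with the smallest p between diets. Others are said to be chosen after their values were seen. Near-identical copies are stretches of 100 bases at 95% identity found with BLAST 2.17.0. As alternatives, DESeq2 1.42.0, upper-quartile or RLE factors, other filters and sets of libraries and a 1.5-fold threshold were tried, and mice were left out in turn.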

Additional observations from a re-analysis of the deposited data

How the results depend on the processing

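The direction of each gene named with a fold or a p was the same under every alternative run for it. The count of 74 genes in the lean callus was 67 with RLE factors, 74 with upper-quartile factors and 68 with a filter of 0.5 CPM in 1 library, and these fits shared 67, 71 and 67 genes with the 74. It was 605 with DESeq2, 169 with no filter, 24 with the 6 libraries of d3 and d5 only, 202 with all 30 libraries, 791 with DESeq2 on the 6 libraries and 18 with the 1.5-fold threshold, and it ran from 9 to 129 with 1 mouse left out. The 18 genes past the 1.5-fold threshold were all among the 74, and the larger DESeq2 counts held 74 and 72 of them. The edgeR fit of the 6 libraries of d3 and d5 only shared 17 genes with the 74, and that of all 30 libraries 58. In the DIO callus the count of 285 was 575 with DESeq2 and 478 with no filter, and it ran from 90 to 216 with 1 mouse left out. Between the diets the count of 0 was 1 with DESeq2 and from 0 to 2 with 1 mouse left out. The cause of these shifts was not tested. Replicate numbers name different mice. Same-numbered lean d3 and d5 mice had correlations of 0.087, 0.353 and 0.035 in their deviations from the day means. Those with unlike numbers had correlations from -0.278 to 0.2. Not every mouse correlated best with its own number, and whether same-numbered mice shared a batch cannot be told from these values. With the replicate number as a block, 199 genes were called in the lean callus, 234 in the DIO callus and 1 between the diets. The spread between 3 mice a day, and for genes near 1 CPM the number of reads, limits the precision.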
